A study of Mus musculus with 19 samples.

Results

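The genes described here are named as subunits of the mitochondrial machinery of oxidative phosphorylation, which is carried out in the inner mitochondrial membrane by 5 multi-subunit complexes. Complex I (NADH dehydrogenase) and complex II (succinate dehydrogenase) pass electrons to ubiquinone, complex III passes them to cytochrome c, complex IV (cytochrome c oxidase) hands them to oxygen, and complex V (ATP synthase) makes ATP from the proton gradient that results. Most subunits are encoded in the nucleus and a few in mitochondrial DNA. In blood, lymphocytes and monocytes rely on this pathway, neutrophils are known to hold few mitochondria and to draw on glycolysis, and red cells lose their mitochondria as they mature from reticulocytes.

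The members described here were all array probes whose gene name starts with Ndufa, Ndufb, Ndufc, Ndufs, Ndufv, Uqcr, Atp5 or Cox4 to Cox8, or is Sdha, Sdhb, Sdhc or Sdhd, without the Ndufaf assembly factors. The rule used names and no measured value. It took 115 probes for 82 genes, of 41174 non-control probes and 27745 gene names on the array. Complex I had 55 probes for 37 genes, complex II 5 probes for 4 genes, complex III 10 probes for 7 genes, complex IV 20 probes for 18 genes and complex V 25 probes for 16 genes. Of the 82 names, 3 have a current RefSeq symbol outside the family: Cox4nb is Emc8, Ndufa12l is the assembly factor Ndufaf2, and Atp5s is Dmac2l. The complex of a gene was taken from its name alone. These 3 names therefore stay in the counts by complex, and Ndufa4 is counted with complex I. Uqcr is now Uqcr11, and Atp5f1 is now Atp5pb.

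Gene expression was measured in circulating leukocytes of male mice of the strains DBA/2 and C57BL/6J (B6) after intraperitoneal injections of CAWS, a water-soluble mannoprotein and β-glucan fraction of Candida albicans that causes vasculitis of the coronary arteries. DBA/2 mice often die of it and B6 mice rarely do, and the study asked how the leukocytes of the strains differ over time. RNA was taken right after the last injection (0 w) and 2, 4, 8 and 9 weeks later from mice that were still alive, and hybridised to 1-colour (Cy3) Agilent whole-genome arrays. DBA/2 had 2 samples at each of the 5 times. B6 had 2 samples at 0, 4 and 8 w and 1 sample at 2 w and at 9 w, so that 18 samples on 19 arrays made 10 groups. B6 0 w replicate 2 was hybridised on 2 arrays, whose values were averaged, and over the tested member probes these arrays differed by a median of 0.07 on the log2 scale. Every group had received CAWS, and no uninjected group was used here. Per the study's methods the labelled cRNA on an array came from 1 mouse, and the labels call the samples of a group replicates 1 and 2. The second DBA/2 2 w sample has the title of replicate 2, while another of its labels calls it the second technical replicate of biological replicate 2, as for an array of B6 0 w replicate 2. It was used as replicate 2.

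Each value below is a log2 level, the log2 of the scanner's processed signal minus the 75th percentile of that array, so that 0 is the signal of the 75th percentile and a difference of 1 is 2-fold. Levels of different probes were not compared with each other. Probes that the scanner marked as well above background in 2 or more samples were tested, 22939 in all, and a difference was called where the limma adjusted p (Benjamini-Hochberg, over all tested probes) was under 0.05. Of the 115 member probes, 106 were tested and 93 were well above background in all 18 samples. The other 9 probes were not tested, and with them Cox8b and Cox8c, for which no probe was measured in this sense. No member spot was saturated, and 1 was marked as an outlier by the scanner (Uqcrb in DBA/2 9 w replicate 2) and left out. With the normexp method for background, limma called between 0 and 17 members in a comparison, and without the filter on dim probes between 0 and 36. The median SD between replicates over the tested member probes was 0.0861, and where a gene had several probes, its brightest one is given. Because the samples are bulk RNA, fewer cells of a type and less RNA per cell cannot be told apart.

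Between 33.9% and 51.4% of the 43379 non-control spots were well above background on an array, and DBA/2 9 w replicate 2 had 1187 outlier spots against 64 to 180 on the others. All 4 leukocyte markers (Ptprc, Coro1a, Laptm5, Cd52) were measured in every sample. The hepatocyte list, which should be absent from blood, was not: all 19 markers were well above background in the B6 0 w samples, 17 to 19 in the B6 8 w samples and 3 to 8 in the others, with a summed signal of 29220 to 29904, 16962 to 17710 and 386 to 1002. Erythroid markers were measured throughout (8 to 9 of 9), and the mean over samples of their median log2 level relative to each gene's mean was 0.38, 0.72, 0.54, -0.58 and 0.06 in B6 at 0, 2, 4, 8 and 9 w and -0.32, 0.05, -0.67, -0.19 and 0.20 in DBA/2. For the neutrophil list (7 to 10 of 10 measured) it went from -1.95 in B6 0 w to 1.23 in B6 8 w and from -0.90 in DBA/2 0 w to 1.66 in DBA/2 8 w. DBA/2 and B6 lay on different slides at 0, 4 and 8 w, and DBA/2 9 w lay on a different slide from DBA/2 0 w, so for these comparisons strain or time and slide cannot be told apart. Every replicate 1 array was scanned on one day and every replicate 2 array on another, so that the replicate number is also the scan day.

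The member genes did not move as a block. An F test of any difference among the 10 groups called 81 of the 106 member probes (76.4%, against 54.1% of all probes tested), or 61 of 80 genes. Of the members, 93 of 106 were well above background in all samples, against 12188 of the 22939 probes tested. The F test share was not matched for this. The lowest adjusted p values belonged to the complex IV genes Cox6a1 (9.63e-08), Cox7b (1.80e-06) and Cox5a (5.67e-06), and the highest to Atp5f1 (0.412), Sdhc (0.663) and Cox7a1 (0.897). By group mean, 26 of the 80 genes were highest in the single B6 2 w sample, 11 in B6 0 w, and 10 each in DBA/2 0 w and DBA/2 8 w. The lowest group was B6 4 w for 22 genes, DBA/2 9 w for 13 and DBA/2 4 w for 12.

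**Figure D1:**
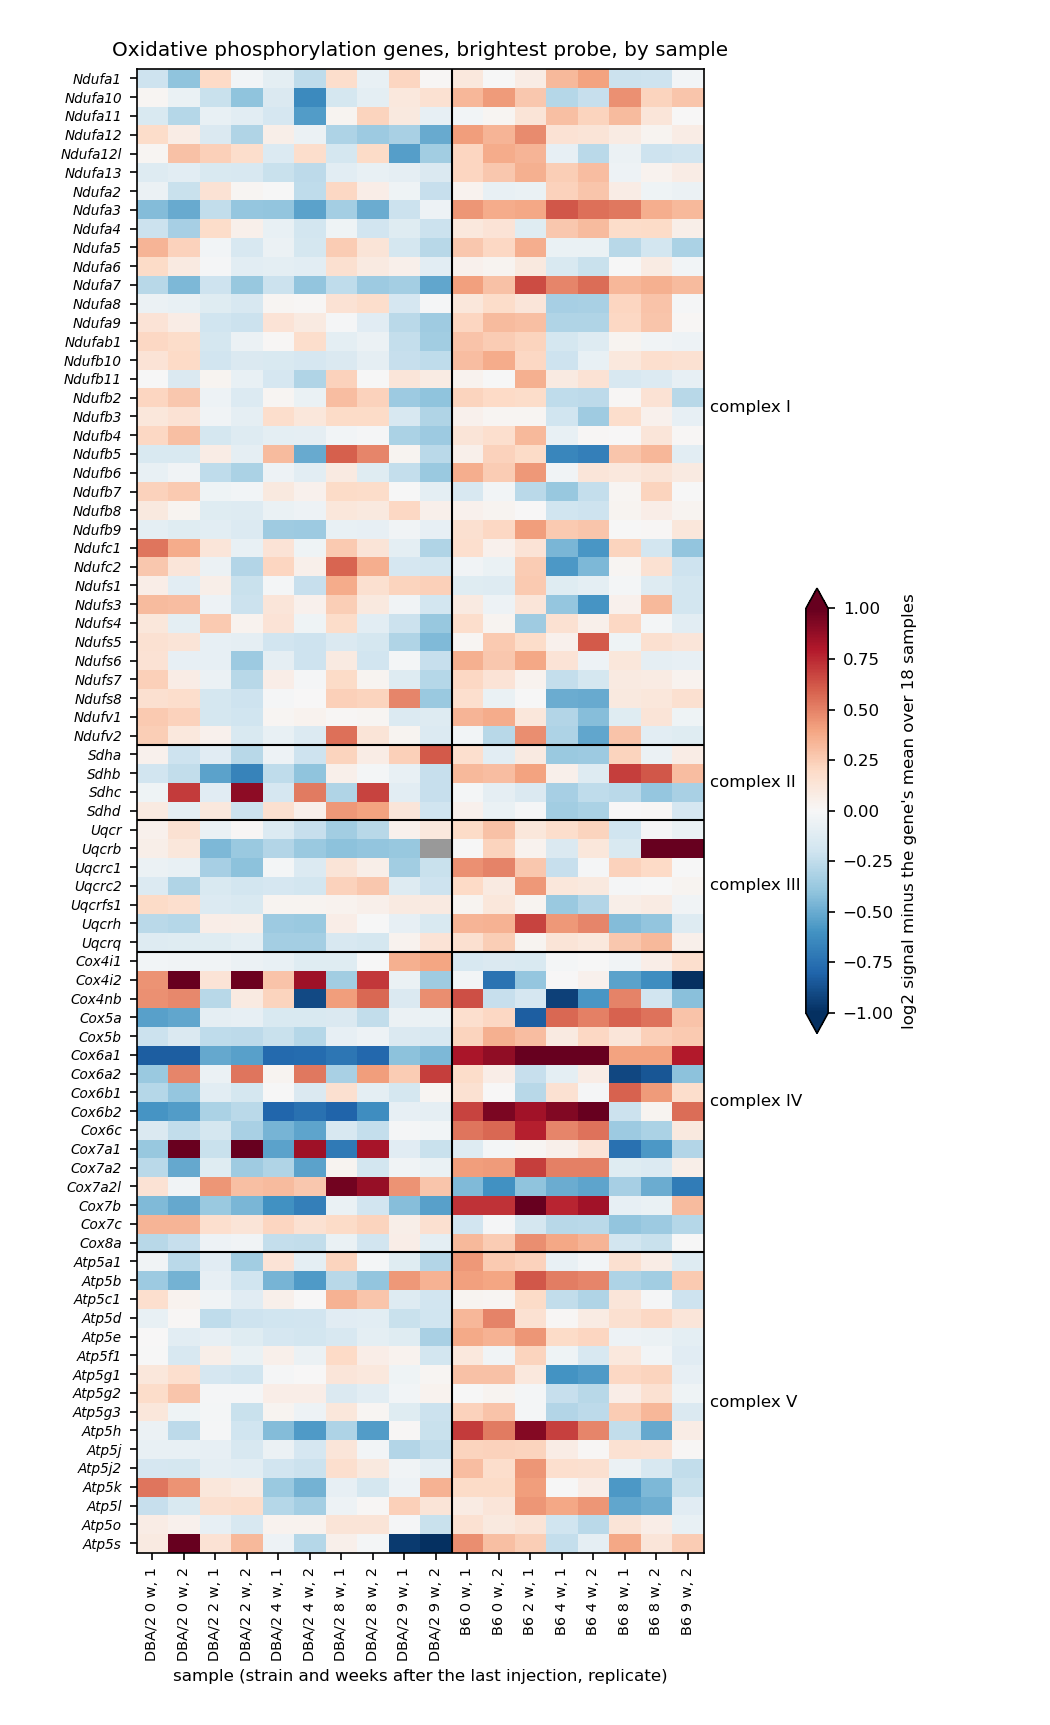
Heat map of the brightest probe of 79 of the 80 tested genes (rows, grouped by complex) in the 18 samples (columns); colour is the log2 level minus that gene's mean over samples, clipped at 1 in either direction, and grey is the Uqcrb value that was left out. Most complex I rows are low in B6 4 w and DBA/2 9 w, and a set of complex IV and V rows is high in B6 0, 2 and 4 w and low in B6 8 w and DBA/2.

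By the median of its probes, complex IV differed most between the strains at 0 w (-0.47) and 4 w (-0.41). Cox6a1, the ubiquitous form of subunit 6a, measured 4.96 and 4.95 in the DBA/2 0 w samples, 5.27 and 5.24 at 2 w, 5.0 and 5.01 at 4 w, 5.06 and 4.99 at 8 w and 5.37 and 5.33 at 9 w. The B6 values were 6.59 and 6.67 at 0 w, 6.95 and 6.89 at 4 w, 6.18 and 6.18 at 8 w, and 6.81 and 6.57 in the single samples of 2 w and 9 w. Every DBA/2 sample was thus below every B6 sample, and the strains did not overlap at any time. The log2 difference, DBA/2 minus B6, was -1.68 ± 0.07, -1.92 ± 0.07 and -1.16 ± 0.07 at 0, 4 and 8 w (SE, 2 samples in each group), or 3.20-fold, 3.78-fold and 2.23-fold lower (limma adjusted p = 2.14e-07, 8.61e-08 and 2.90e-06). Its probe lies at chr5:115606716-115606775 on the minus strand of mm8, the build of the array design, for which no gene annotation was used here.

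Cox6b2, the testis form of subunit 6b, followed the same order. It measured 0.63 and 0.66 in DBA/2 at 0 w, 0.42 and 0.47 at 4 w and 0.42 and 0.60 at 8 w, against 1.90 and 2.16, 2.14 and 2.32, and 1.01 and 1.24 in B6. The strains did not overlap at these times, with log2 differences of -1.38 ± 0.12, -1.79 ± 0.12 and -0.62 ± 0.12 (adjusted p = 2.33e-05, 3.76e-06 and 0.00410). Cox5a, a nuclear-encoded subunit of the same enzyme, was lower in DBA/2 at 0, 4 and 8 w by a nearly constant amount. The log2 differences were -0.72 ± 0.07, -0.69 ± 0.07 and -0.76 ± 0.07 (adjusted p = 4.62e-05, 5.07e-05 and 3.95e-05). At 2 w the order was the other way, with the single B6 sample (3.46) below both DBA/2 samples.

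Cox7a2l, which encodes the supercomplex assembly factor SCAF1 that joins complexes III and IV, went the other way. It measured 1.59 and 1.41 in DBA/2 at 0 w, 1.76 and 1.71 at 4 w and 2.41 and 2.31 at 8 w, and 1.00 and 0.84, 0.95 and 0.92, and 1.11 and 0.94 in B6. All DBA/2 samples were above all B6 samples, also at 2 w and 9 w, and the log2 difference was 0.58 ± 0.11, 0.80 ± 0.11 and 1.33 ± 0.11 (adjusted p = 0.00271, 0.000373 and 2.01e-05). Cox7c, another small subunit of complex IV, was also higher in DBA/2 at 0, 4 and 8 w, by 0.44 ± 0.08, 0.46 ± 0.08 and 0.59 ± 0.08 (adjusted p = 0.00212, 0.00175 and 0.000526).

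Over all members, 6 probes were higher and 39 lower in DBA/2 at 0 w (background 17.2% and 15.4%), 20 higher and 39 lower at 4 w (background 19.1% and 13.0%), and 13 higher and 17 lower at 8 w (background 10.4% and 15%). The lower shares of 36.8% at 0 w and at 4 w were above the background, and the 16.0% at 8 w was near it. Over probes well above background in all 18 samples, the lower share was 40.9%, 40.9% and 18.3% of members and 19.7%, 17.5% and 19.2% of all such probes. At 0 w, 10 of 17 complex IV probes, 12 of 24 complex V probes and 6 of 9 complex III probes were lower in DBA/2, against 10 of 51 for complex I. The median log2 difference over the members was -0.17, -0.07 and -0.01 at the 3 times, against 0.06, 0.06 and -0.04 over all probes tested. Erythroid markers moved with this pattern: 6 and 8 of 9 were lower in DBA/2 at 0 w and 4 w, and 6 of 9 were higher at 8 w. Their summed signal was 1292138 to 1360367 in DBA/2 and 2407880 to 2468127 in B6 at 0 w, 1312531 to 1345792 and 2248787 to 2430184 at 4 w, and 1483684 to 1489804 and 1116190 to 1152021 at 8 w. Of 7 monocyte or macrophage markers, 4 were lower in DBA/2 at 0 w and 6 higher at 4 w. Their summed signal was 561 to 579 in DBA/2 and 774 to 836 in B6 at 0 w. At 4 w it was 1520 to 1592 and 504 to 536. The summed neutrophil marker signal was 40051 to 40458 in DBA/2 and 21503 to 21590 in B6 at 0 w. It was 125920 to 135661 and 52700 to 56408 at 4 w, and 264405 to 294385 and 161462 to 162332 at 8 w. The part of these cells was not tested. The lowest counts with a sample left out were 33 at 0 w, without DBA/2 0 w replicate 2, and 41 at 4 w, without B6 4 w replicate 2. At 8 w the count was 17 without B6 8 w replicate 1, 18 without DBA/2 8 w replicate 1, 17 without B6 8 w replicate 2 and 16 without DBA/2 8 w replicate 2. With the hepatocyte marker level as a covariate, limma called 3 probes at 0 w and 1 at 8 w, and 64 at 4 w, when that marker signal was low in both strains. The model already held a mean for each group, so this covariate was estimated only from differences between replicates of a group. Between groups of unlike marker level it widens the SE. Wherever this covariate is used here, its counts therefore do not measure the part of hepatocyte RNA, which was not tested.

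Quantile normalization gave 11 higher and 26 lower at 0 w, 23 and 19 at 4 w and 12 and 9 at 8 w, and scaling to the percentile of all probes gave 16 and 8 at 8 w. The value table, which is not scaled between arrays, gave 72 higher and 3 lower at 0 w, 72 and 4 at 4 w and 1 and 48 at 8 w, with the median of all probes itself shifted by 0.82, 0.80 and -0.37. The counts above are therefore relative to the level of the other measured probes on the same array. At 4 w and 8 w the excess of lower over higher members also depended on the scaling. No shares of all probes are given for these alternatives.

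**Figure D2:**
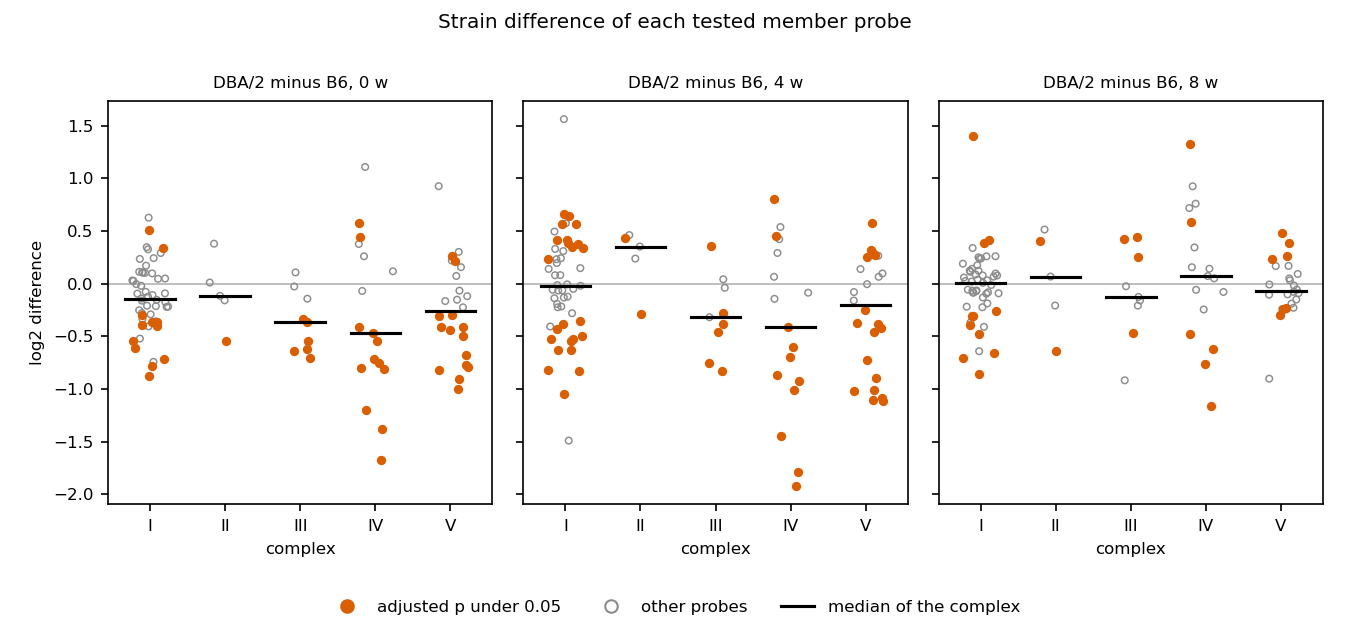
Log2 difference DBA/2 minus B6 of every tested member probe at 0, 4 and 8 w, by complex; orange points were called, grey points were not, and the bar is the median of the complex. The points of complexes III, IV and V lie mostly below 0 at 0 w and 4 w and around 0 at 8 w, and Cox6a1 is the lowest point of all 3 panels.

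Of the members, 10 probes for 9 genes were lower in DBA/2 at each of 0, 4 and 8 w (background 4.87%): Ndufa3, Ndufa4, Ndufa7, Sdhb, Uqcrq, Cox5a, Cox6a1, Cox6b2 and Atp5d. Ndufa3, an accessory subunit of complex I, measured 1.14 and 1.07 in DBA/2 at 0 w and 2.01 and 1.94 in B6, with no overlap of the strains at any time. Its log2 difference was -0.87 ± 0.10, -1.05 ± 0.10 and -0.86 ± 0.10 at 0, 4 and 8 w (adjusted p = 0.000180, 4.98e-05 and 0.000263). Both probes of Ndufa7, also an accessory subunit of complex I, were lower, the brighter one by -0.71 ± 0.11, -0.83 ± 0.11 and -0.65 ± 0.11. For Sdhb, the iron-sulfur subunit of complex II, the differences were -0.54 ± 0.10, -0.29 ± 0.10 and -0.64 ± 0.10 (adjusted p = 0.00229, 0.0471 and 0.00108). Cox7a2l and Cox7c were the 2 probes higher at all 3 times (background 3.91%). Probe sequences were not compared here with the DBA/2 genome or with pseudogene copies of these genes.

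Other members were called between the strains at 0 w and 4 w and not at 8 w. Cox7b, a small subunit of complex IV, measured 1.67 and 1.59 in DBA/2 at 0 w, 1.73 and 1.65 at 2 w, 1.51 and 1.42 at 4 w, 2.04 and 1.91 at 8 w and 1.68 and 1.56 at 9 w. The B6 values were 2.83 and 2.83 at 0 w, 2.87 and 2.95 at 4 w, 2.03 and 2.04 at 8 w, and 3.19 and 2.43 in the single samples of 2 w and 9 w. All DBA/2 samples were below all B6 samples at 0 w and 4 w, and at 8 w the samples overlapped. The log2 differences were -1.20 ± 0.08 and -1.45 ± 0.08 at 0 and 4 w (adjusted p = 5.37e-06 and 1.37e-06), and -0.06 ± 0.08 at 8 w, which was not called. Cox6c and Cox8a of complex IV, and Atp5b, the catalytic β subunit of ATP synthase, were likewise called lower at 0 w (-0.75 ± 0.08, -0.54 ± 0.08 and -0.82 ± 0.08) and at 4 w (-1.01 ± 0.08, -0.60 ± 0.08 and -1.02 ± 0.08) and not at 8 w.

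Uqcrh, the hinge protein of complex III, and Atp5l, the g subunit of ATP synthase, turned over between 4 w and 8 w. Uqcrh measured 4.97 and 4.96 in DBA/2 0 w, 4.88 and 4.87 in DBA/2 4 w and 5.31 and 5.24 in DBA/2 8 w. In B6 it measured 5.59 and 5.59, 5.68 and 5.74, and 4.81 and 4.85 at these times. DBA/2 was below B6 at 0 w and 4 w and above it at 8 w, without overlap. The log2 difference was -0.62 ± 0.07, -0.83 ± 0.07 and 0.45 ± 0.07 at 0, 4 and 8 w (adjusted p = 9.89e-05, 1.32e-05 and 0.000953), and for Atp5l it was -0.30 ± 0.07, -0.73 ± 0.07 and 0.48 ± 0.07 (adjusted p = 0.0113, 5.48e-05 and 0.000983). The second Uqcrh probe gave -0.64 ± 0.07, -0.75 ± 0.07 and 0.42 ± 0.07.

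Promoters of such genes are known to be bound by the nuclear respiratory factor NRF1, by ETS family factors such as GABP, and by YY1. RefSeq promoter windows (GRCm38.p6, 250 bases before to 50 after the start) were found for 67 of the 82 member genes, 72 windows in all. The word GCGCATGCG (NRF1), searched on both strands, occurred in 11.1% of the member windows and in 1.75% of all 32851 windows. CCGGAAG (ETS) occurred in 22.2% and 8.86%, AAGATGGC (YY1) in 13.9% and 2.75%, and any of these 3 words in 40.3% and 12.5%. A match is a description of the letters in the window and not a binding site. The windows of 4 of the genes on which the results turn are shown. Cox6a1 had the largest strain difference, Cox7b and Uqcrh fell in B6 at 8 w, and Uqcrc1 fell in B6 at 4 w. Capitals mark a word, read on either strand, and the 10 capitals of Cox6a1 and of Uqcrc1 hold overlapping NRF1 words of the 2 strands. They lie at chr5:115348909-115349208 (minus strand), chrX:106015450-106015749 (plus), chr4:116075021-116075320 (minus) and chr9:108936398-108936697 (plus).
Cox6a1: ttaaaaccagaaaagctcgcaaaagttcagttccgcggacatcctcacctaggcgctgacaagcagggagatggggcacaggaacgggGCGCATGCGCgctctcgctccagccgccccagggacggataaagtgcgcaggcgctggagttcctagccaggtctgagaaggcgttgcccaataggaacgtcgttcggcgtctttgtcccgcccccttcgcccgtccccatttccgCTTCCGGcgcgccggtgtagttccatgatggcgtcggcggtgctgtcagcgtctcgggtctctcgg
Cox7b: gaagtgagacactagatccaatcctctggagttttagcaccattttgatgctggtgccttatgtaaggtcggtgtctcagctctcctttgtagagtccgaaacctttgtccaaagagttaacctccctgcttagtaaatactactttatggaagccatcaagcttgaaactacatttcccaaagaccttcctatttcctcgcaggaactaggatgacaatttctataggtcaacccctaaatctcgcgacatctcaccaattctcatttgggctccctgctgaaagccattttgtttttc
Uqcrh: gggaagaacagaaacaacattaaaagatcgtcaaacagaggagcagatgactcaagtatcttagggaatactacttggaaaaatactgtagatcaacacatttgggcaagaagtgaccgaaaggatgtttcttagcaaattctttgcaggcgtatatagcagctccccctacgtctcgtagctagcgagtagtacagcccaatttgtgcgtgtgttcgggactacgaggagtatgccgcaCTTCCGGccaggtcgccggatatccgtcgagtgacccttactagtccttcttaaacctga
Uqcrc1: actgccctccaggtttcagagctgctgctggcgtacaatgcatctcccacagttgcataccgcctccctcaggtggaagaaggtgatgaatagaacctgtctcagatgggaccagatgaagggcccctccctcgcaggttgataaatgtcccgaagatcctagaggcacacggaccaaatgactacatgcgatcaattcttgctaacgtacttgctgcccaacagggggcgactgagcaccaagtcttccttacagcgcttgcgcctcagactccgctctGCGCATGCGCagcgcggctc
Cox6a1 held the NRF1 and the ETS word, Uqcrh the ETS word, Uqcrc1 the NRF1 word and Cox7b none of the 3. Cox7b and Uqcrh did not share a word in these windows, and a link between words and levels was not tested. The windows of Ndufv1, Atp5g1 and Cox7a2l, which are not shown, also held none of the 3 words.

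In B6 at 8 w, members of complexes III, IV and V fell. The called members were 27 lower and 3 higher (background 10.2% and 11.0%), and the lower share was 25.5% (28% of members and 14.8% of all probes, over those well above background in all samples). It was 8 of 17 probes for complex IV and 10 of 24 for complex V, against 6 of 51 for complex I. The median log2 change was -0.45 for complex IV probes, -0.26 for complex III, -0.18 for complex V and -0.07 for complex I, against -0.04 over all probes tested.

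Cox6c, a small subunit of complex IV, measured 4.79 and 4.83 in the B6 0 w samples and 3.89 and 3.94 in the B6 8 w samples. The groups did not overlap, and the change was -0.90 ± 0.08 (adjusted p = 5.49e-05), or 1.86-fold lower. Cox6b2 fell by as much, -0.90 ± 0.12 (adjusted p = 0.000596), and Cox7b, Cox7a2, Cox8a, Cox6a1 and Cox7c by 0.79, 0.55, 0.49, 0.45 and 0.27, of which that of Cox6a1 turned to 0.16 under quantile normalization. Against these, Cox5a rose by 0.38 ± 0.07 (adjusted p = 0.00387) and Cox6b1, the common form of subunit 6b, by 0.43 ± 0.12 (adjusted p = 0.0328), while Cox4i1, the common form of subunit 4, changed by 0.17 ± 0.07 and was not called.

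In complex V, Atp5h, the d subunit of the peripheral stalk, measured 4.62 and 4.44 at 0 w and 3.67 and 3.41 at 8 w. It was lower in both 8 w samples, with a change of -0.99 ± 0.15 (adjusted p = 0.00137), and its second probe gave -0.90 ± 0.07 (adjusted p = 2.06e-05). Atp5b measured 5.72 and 5.70 at 0 w and 5.0 and 4.96 at 8 w and fell by 0.73 (adjusted p = 0.000243), and its other 2 probes fell by 0.68 and 0.64. Atp5k, Atp5l, Atp5e and Atp5j2, small membrane or stalk subunits, fell by 0.70, 0.61, 0.41 and 0.35. In complex III, Uqcrh fell by 0.76 ± 0.07 (adjusted p = 5.32e-05) and its second probe by 0.83, and Uqcr by 0.35. Ndufa5, Ndufv1, Ndufa12, Ndufab1 and Ndufa13 of complex I fell by 0.47, 0.35, 0.32, 0.28 and 0.25, and Sdhb rose by 0.34 ± 0.10 (adjusted p = 0.0366).

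**Figure D3:**
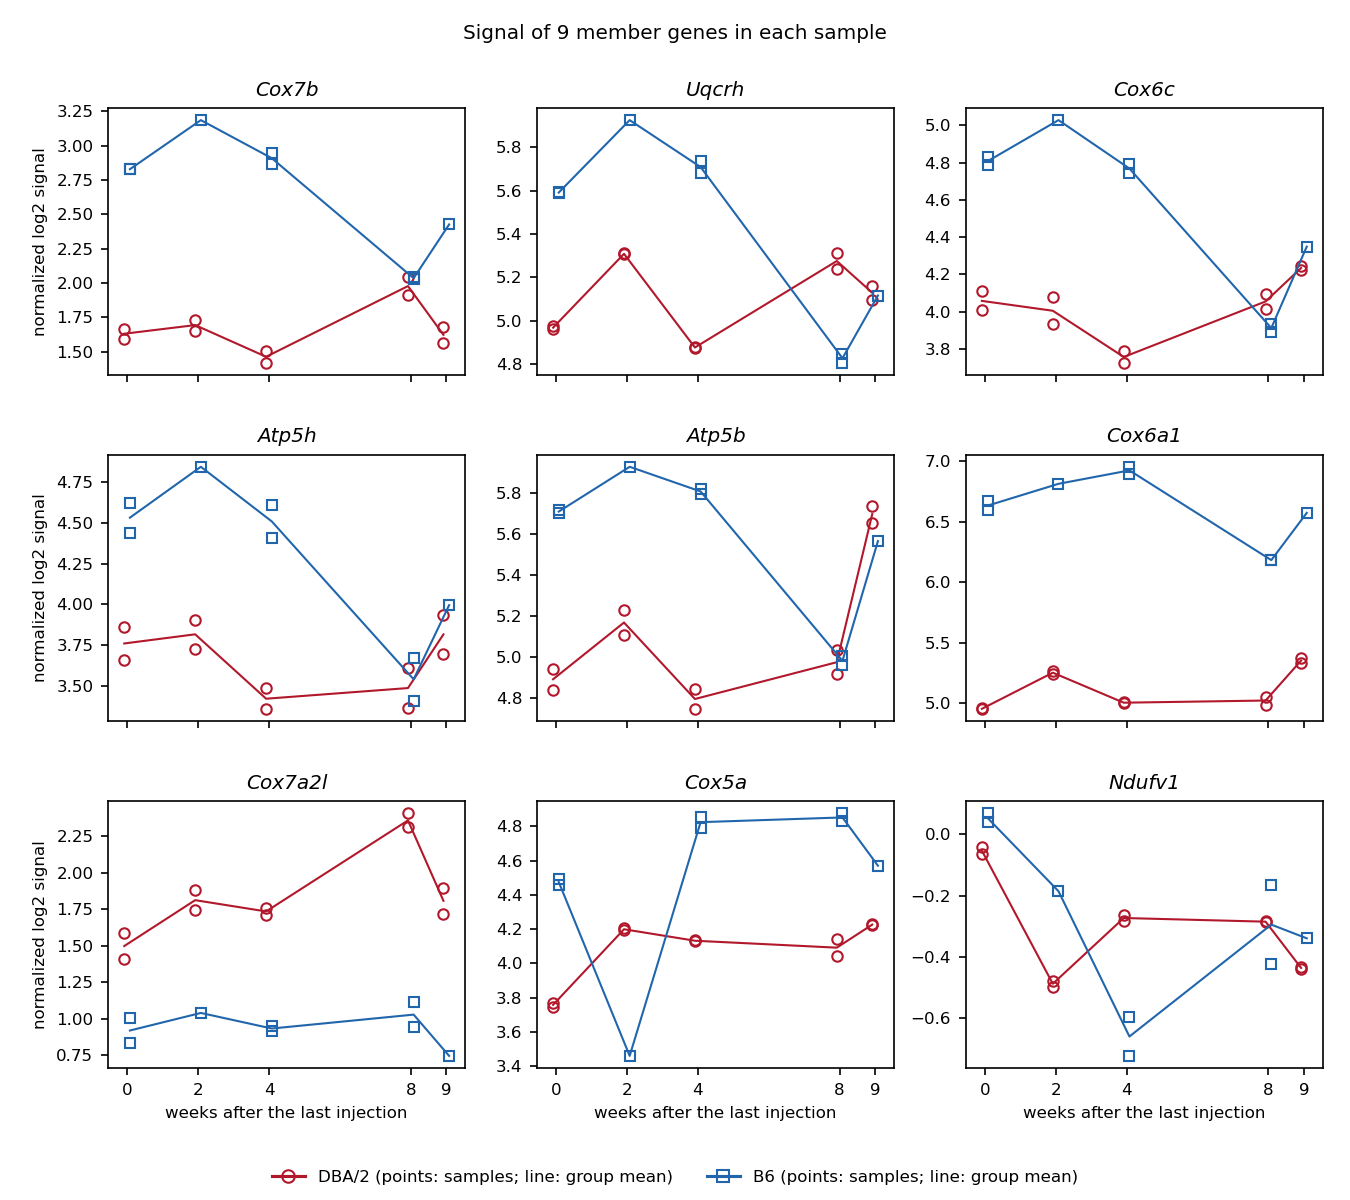
Log2 level of 9 members against weeks after the last CAWS injection, DBA/2 and B6; each point is a sample, and lines join group means. Cox7b, Uqcrh, Cox6c, Atp5h and Atp5b drop in B6 at 8 w to the DBA/2 levels or below, Cox6a1 stays higher in B6 throughout, Cox7a2l stays higher in DBA/2, Cox5a is lowest in the B6 2 w sample, and Ndufv1 is lowest in B6 4 w.

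Within slide 1, which held B6 8 w replicate 2 and an array of B6 0 w replicate 2, all 30 called members had the same sign. These arrays were among those that gave the calls, so this agreement was not independent of them. The count was 18 without B6 0 w replicate 1 and 19 without B6 0 w replicate 2, and 26 with the hepatocyte marker level as a covariate. In the unscaled values 87 members were called and all were higher, with the median of all probes shifted by 1.02. Erythroid markers moved with this result: 7 of 9 fell from B6 0 w to 8 w (8 to 9 of 9 measured), their summed signal went from 2407880 to 2468127 at 0 w to 1116190 to 1152021 at 8 w, and all 10 neutrophil markers rose. The part of these cells in the change was not tested.

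**Figure D4:**
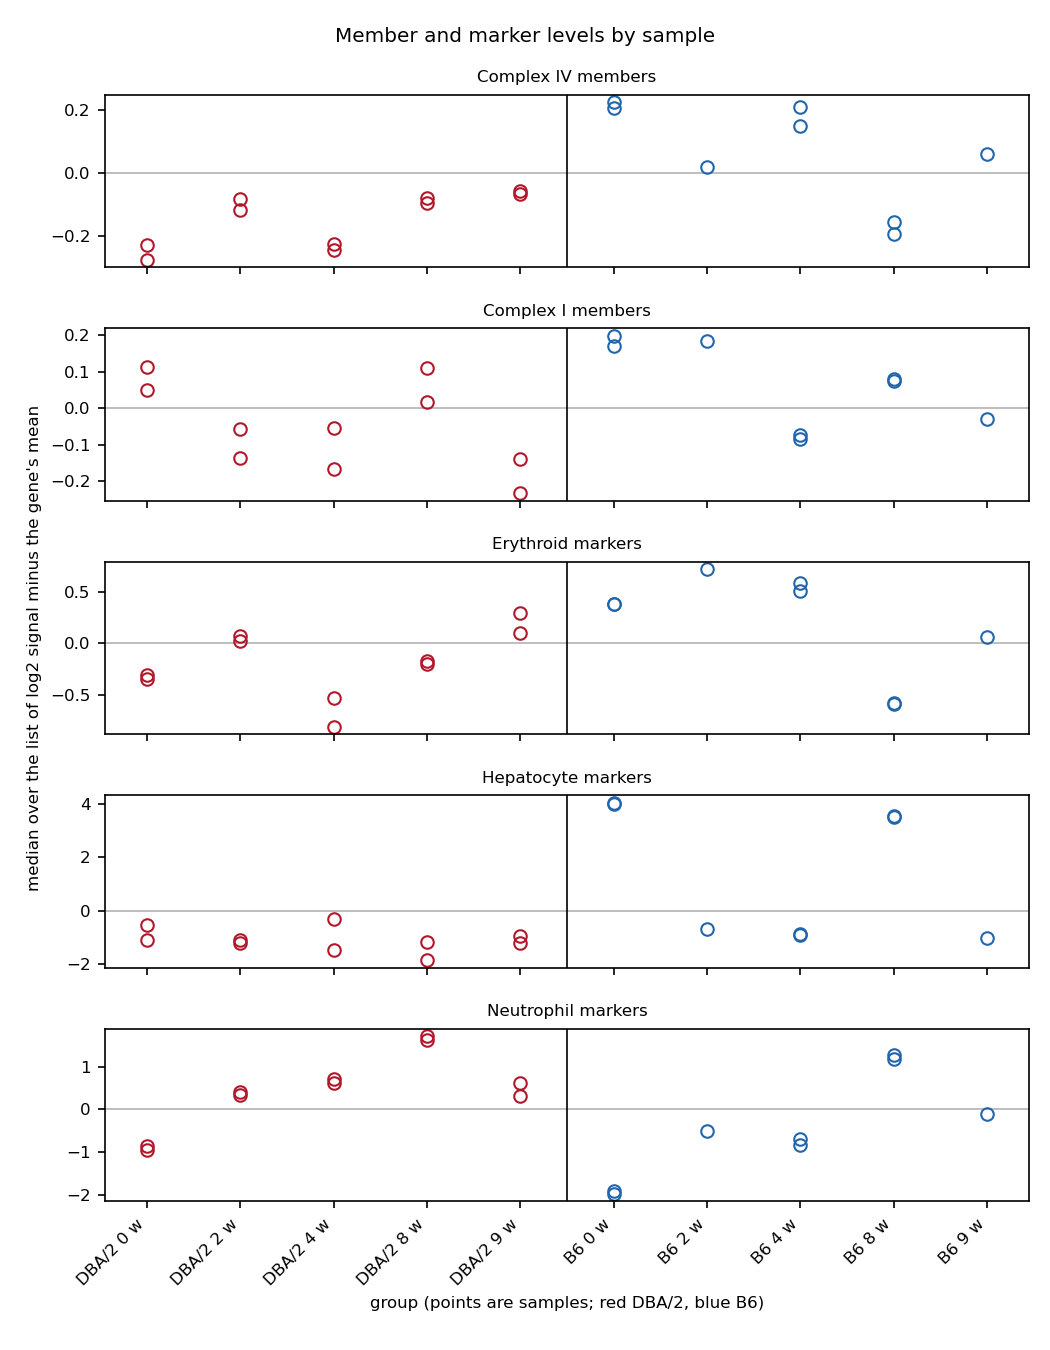
Median log2 level in each sample, relative to each gene's mean over samples, of the complex IV and complex I probes and of the erythroid, hepatocyte and neutrophil marker lists; points are samples. Complex IV is high in B6 0 w and 4 w and low in B6 8 w (-0.16 and -0.19), where the erythroid median is also low (-0.59 and -0.58); the hepatocyte median is high only in B6 0 w and 8 w.

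At 4 w in B6 members of complexes I, II, III and V fell, and complex I, the largest, held most of them. The called members were 28 lower and 3 higher (background 9.66% and 6.02%), and the lower share was 26.4% (29% of members and 13.1% of all probes, over those well above background in all samples). All 17 called complex I probes (of 51) were lower, as were both called complex II probes (of 5), the 3 called complex III probes (of 9) and 6 of the 7 called in complex V (of 24), and the 2 called in complex IV were higher. The median change was -0.27 over complex I probes and 0.07 over complex IV probes, against -0.04 over all probes tested.

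Core subunits of complex I were among them. Ndufv1, which binds NADH and the flavin, measured 0.04 and 0.07 at 0 w and -0.60 and -0.72 at 4 w, below all other groups, and changed by -0.71 ± 0.09 (adjusted p = 0.000885). Ndufs3 and Ndufs7 fell by 0.51 and 0.38, and the accessory subunits Ndufb5, Ndufa10, Ndufc1 and Ndufa9 by 0.80, 0.64, 0.62 and 0.57. The core subunits Ndufs1, Ndufs8 and Ndufv2 were not called, with differences of 0.02 ± 0.12, -0.55 ± 0.22 and -0.26 ± 0.18.

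Atp5g1, a gene for the proton-carrying c subunit of ATP synthase, had the lowest adjusted p. It measured -0.74 and -0.75 at 0 w and -1.64 and -1.61 at 4 w, without overlap, and changed by -0.88 ± 0.06 (adjusted p = 3.00e-05), or 1.84-fold lower. The other c subunit genes Atp5g3 and Atp5g2, whose mature product is the same, fell by 0.53 and 0.27. Uqcrc1, a core protein of complex III, measured 0.70 and 0.74 at 0 w and 0.02 and 0.24 at 4 w and changed by -0.60 ± 0.09 (adjusted p = 0.00267), and Uqcrfs1, the Rieske iron-sulfur protein, changed by -0.40 ± 0.07 (adjusted p = 0.00376). Sdhb fell by 0.36 (adjusted p = 0.0357). The members that rose were Cox5a (0.35 ± 0.07), Atp5l (0.31 ± 0.07) and Cox6a1 (0.29 ± 0.07).

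All 31 called members had the same sign within slide 1 and within slide 3, whose arrays also gave the calls, so this agreement was not independent of them. The count was 14 without B6 4 w replicate 1, 12 without B6 0 w replicate 1, 14 without B6 4 w replicate 2 and 15 without B6 0 w replicate 2. Scaling to the percentile of all probes gave 7 higher and 13 lower. The hepatocyte markers moved with this comparison, 17 of 19 having fallen from B6 0 w to 4 w. With their level as a covariate limma called 0 members (22 at an unadjusted p under 0.05). That count has the limit given above for this covariate. Against the single B6 2 w sample, which like B6 4 w had few of these markers above background, 23 members were lower and 2 higher at 4 w (23.6% of members against 15.6% of all probes). This comparison was added after the data were seen. Its shares were not matched by limiting them to probes well above background in all samples. That sample is a single one and had a platelet marker signal of 53241, against 143346 to 146849 in B6 0 w and 191466 to 204259 in B6 4 w. Of the blood cell markers, 5 of 7 monocyte or macrophage genes fell from B6 0 w to 4 w and 1 rose (summed signal 774 to 836 and 504 to 536), 4 of 8 T cell, 4 of 7 B cell and 3 of 4 NK cell genes fell, and 9 of 10 neutrophil genes, 7 of 8 platelet genes and 4 of 9 erythroid genes rose. The part of these cells was not tested.

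In DBA/2, complex I probes were among those that fell at 2, 4, 8 and 9 w, each week having been set against the same 0 w samples. At 2 w, 15 members were lower and 8 higher (background 7.82% and 7.90%), with 10 of the 51 complex I probes lower and 2 higher. At 4 w, 9 were lower and 1 higher (background 7.24% and 7.58%), with 5 complex I probes lower. At 9 w, 24 were lower and 14 higher (background 14.3% and 13.4%), and 21 of the 51 complex I probes (41.2%) were lower. At 8 w, 11 were lower and 15 higher (background 14.0% and 10%), with 6 complex I probes lower and 3 higher. The lower share of members was 14.2%, 8.49%, 10.4% and 22.6% at 2, 4, 8 and 9 w. Over probes well above background in all 18 samples it was 16.1%, 8.60%, 10.8% and 22.6% of members and 13.0%, 10.4%, 20.2% and 21.4% of all such probes. Over all members it was thus near that background at 2, 4 and 9 w and below it at 8 w. The 5 complex I probes lower at 4 w and the 6 at 8 w, of 51, were likewise near or below it.

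Ndufb4, an accessory subunit of the membrane arm, measured 1.07 and 1.16 at 0 w, 0.68 and 0.73 at 2 w, 0.76 and 0.77 at 4 w, 0.83 and 0.84 at 8 w and 0.54 and 0.50 at 9 w. Both 0 w samples were above all later ones, and the change was -0.40 ± 0.07, -0.35 ± 0.07, -0.28 ± 0.07 and -0.60 ± 0.07 (adjusted p = 0.00606, 0.0123, 0.0232 and 0.000386). Ndufb10 was the other complex I gene called lower at all 4 times, by 0.34, 0.33, 0.28 and 0.41. Ndufb2 fell by 0.34, 0.27 and 0.62 at 2, 4 and 9 w, and measured 0.34 and 0.40 at 0 w and 0.44 and 0.36 at 8 w, when it was not called. Ndufa5 fell likewise at 2, 4 and 9 w, by 0.38, 0.40 and 0.51, and Ndufa12 at 2, 8 and 9 w, by 0.35, 0.46 and 0.54. Among the core subunits, Ndufv1 fell by 0.43 and 0.38 and Ndufs3 by 0.44 and 0.42 at 2 w and 9 w, and Ndufs7 by 0.36 at 9 w. The complex I probes that rose at 9 w were both of Ndufa1 (0.41 and 0.48) and that of Ndufa3 (0.33).

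Complex IV rose in DBA/2 where it was called, except for Cox6c at 4 w. Cox5a measured 3.75 and 3.77 at 0 w, 4.19 and 4.2 at 2 w, 4.13 and 4.13 at 4 w, 4.14 and 4.04 at 8 w and 4.23 and 4.22 at 9 w. It was higher in all 8 later samples, by 0.44 ± 0.07, 0.37 ± 0.07, 0.33 ± 0.07 and 0.47 ± 0.07 (adjusted p = 0.00270, 0.00583, 0.00624 and 0.000917). Cox6a1 rose at 2 w by 0.30 and at 9 w by 0.40 (-0.018 under quantile normalization), and Cox4i1 (0.41 ± 0.07) and Cox6b2 (0.49 ± 0.12) rose at 9 w. At 8 w the largest rise was that of Cox7a2l, by 0.86 ± 0.11 (adjusted p = 0.000386, 1.82-fold), and Cox7b rose by 0.35 ± 0.08 (adjusted p = 0.0127). Cox6c fell at 4 w by 0.30 ± 0.08 (adjusted p = 0.0320).

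The catalytic subunit of ATP synthase rose at 9 w. Atp5b measured 4.94 and 4.84 at 0 w, 5.23 and 5.11 at 2 w, 4.84 and 4.74 at 4 w, 5.03 and 4.91 at 8 w and 5.74 and 5.66 at 9 w. The 9 w samples were above all other DBA/2 samples, with a change of 0.81 ± 0.08 (adjusted p = 0.000132, 1.75-fold), and the other probes of the gene rose by 1.00 and 1.12. Atp5k went down instead, from 1.54 and 1.46 at 0 w to 0.64 and 0.53 at 4 w and 0.93 and 0.83 at 8 w, a change of -0.92 ± 0.12 and -0.62 ± 0.12 (adjusted p = 0.00106 and 0.00513). At 8 w the complex I gene Ndufb5 (0.70 ± 0.22) rose, as did Uqcrc2 (0.47 ± 0.08), Sdhd (0.42 ± 0.13) and Uqcrh (0.31 ± 0.07). At 2 w Ndufa4 (0.39 ± 0.09), Atp5l (0.36 ± 0.07) and Uqcrh (0.34 ± 0.07) rose.

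**Figure D5:**
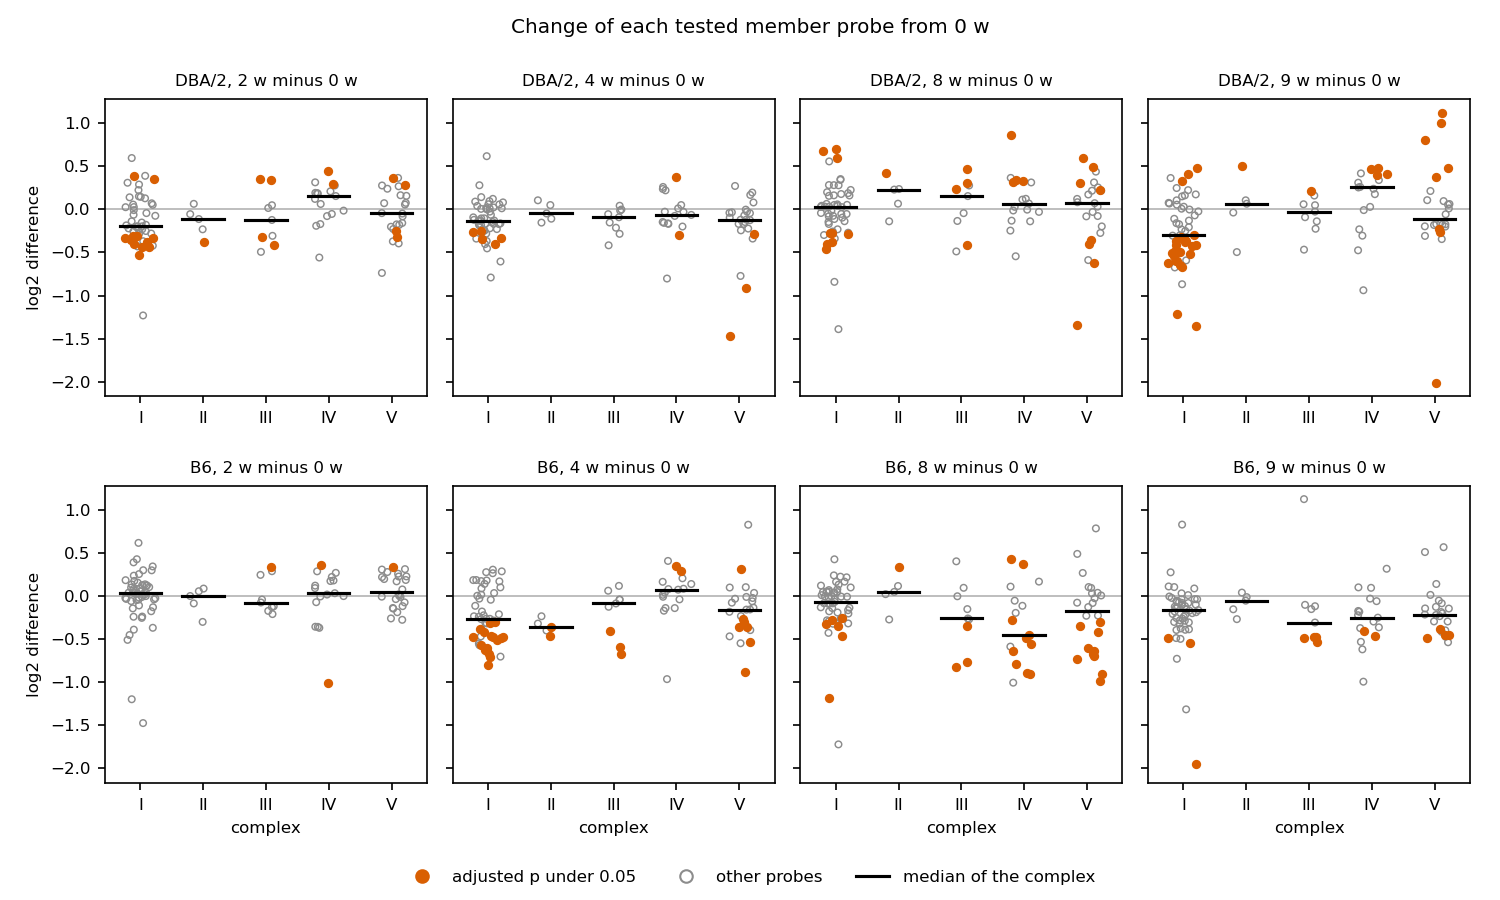
Log2 change against 0 w of every tested member probe, by complex, in 8 panels (DBA/2 and B6 at 2, 4, 8 and 9 w); orange points were called, grey points were not, and the bar is the median of the complex. The complex I median lies below 0 in DBA/2 at 2 w (-0.20) and 9 w (-0.29) and in B6 at 4 w (-0.27), and the complex IV median is lowest in B6 at 8 w (-0.45).

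Within slide 2 and within slide 5 all called members of DBA/2 at 2, 4 and 8 w (23, 10 and 26) had the same sign. The calls came from these same samples, so this agreement was largely set by the calls. The counts changed with the samples used. At 2 w the count was 7 without DBA/2 2 w replicate 1, 6 without DBA/2 0 w replicate 1, 4 without DBA/2 2 w replicate 2 and 2 without DBA/2 0 w replicate 2. At 4 w it was 4 without DBA/2 4 w replicate 1 or DBA/2 0 w replicate 1, 2 without DBA/2 4 w replicate 2 and 3 without DBA/2 0 w replicate 2. At 8 w it was 8 without DBA/2 8 w replicate 1, 10 without DBA/2 0 w replicate 2, and 17 without DBA/2 0 w replicate 1 or without any one of the B6 0 w and B6 4 w samples. At 9 w it was 22 without either DBA/2 0 w sample and 24 without DBA/2 9 w replicate 2. With the replicate number, and so the scan day, as a block, the counts were 41, 19 and 40 at 2, 4 and 8 w.

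The split of the DBA/2 calls depended on the scaling. Scaling to the percentile of all probes gave 10 higher and 2 lower at 2 w, 2 and 2 at 4 w and 33 and 3 at 8 w. Quantile normalization gave 18 calls at 2 w, all lower, and 5 higher and 29 lower at 9 w. The unscaled value table gave 42 calls at 2 w, all lower, and 1 higher and 1 lower at 4 w, 3 and 15 at 8 w and 3 and 65 at 9 w. Neutrophil markers rose at every time (9 of 10 at 2 w and 10 of 10 later), B cell markers fell (6, 4, 5 and 6 of 7), and 7 of 9 erythroid markers rose at 9 w. At 4, 8 and 9 w, 6 of 7 monocyte or macrophage markers rose, with a summed signal of 561 to 579 at 0 w, 547 to 565 at 2 w, 1520 to 1592 at 4 w, 1743 to 1800 at 8 w and 1357 at 9 w, and platelet markers rose in 8, 7, 1 and 8 of 8 genes at the 4 times. Their part in the member changes was not tested.

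The single B6 2 w sample differed from B6 0 w in 4 members, 3 higher and 1 lower (background 5.29% and 7.74%). Cox5a measured 3.46 there, the lowest of all 18 samples, against 4.46 and 4.49 in B6 0 w, a change of -1.02 ± 0.08 (adjusted p = 4.85e-05). Cox7b, Atp5l and Uqcrh rose by 0.36 ± 0.10, 0.34 ± 0.09 and 0.33 ± 0.08. In the single B6 9 w sample 13 members were called and all were lower (background 3.86% lower and 5.48% higher, 12.3% of members lower), among them Ndufa5 (-0.55 ± 0.11), Atp5j2 (-0.49 ± 0.09), Ndufb2 (-0.49 ± 0.09), Uqcrc1 (-0.48 ± 0.11), Uqcrh (-0.47 ± 0.08), Cox6c (-0.46 ± 0.10) and Cox7b (-0.40 ± 0.10). With 1 sample in a group its own spread is unknown, and the fit assumes that it varied like the other groups.

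At 2 w the count in B6 was 1 without either B6 0 w sample and 2 without any one B6 4 w, B6 8 w or DBA/2 2 w sample, and at 9 w it was 4 without B6 0 w replicate 1 and 7 without B6 0 w replicate 2. The unscaled value table gave 1 call, lower, at 2 w and 16 higher and 1 lower at 9 w. With the hepatocyte marker level as a covariate, limma called 0 members at both times (18 and 25 at an unadjusted p under 0.05), and 18 and 17 of these 19 markers were lower than in B6 0 w. In the B6 2 w sample all 8 platelet markers were lower than in B6 0 w (summed signal 53241 against 143346 to 146849) and all 10 neutrophil markers were higher (71189 against 21503 to 21590), and in the B6 9 w sample all 10 neutrophil markers were higher too (84265). With the replicate number as a block the counts were 8 and 23.

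The change from 0 w to the mean of 4 w and 8 w was compared between the strains by an interaction term. All 13 called members changed more upward in DBA/2 than in B6 (background 6.48% upward and 6.73% downward, 12.3% of members). Of all probes well above background in all 18 samples, 8.67% were called upward. Among the 13 were Ndufa8 of complex I, and both probes of Uqcrc1 and of Uqcrh and the single probe of Uqcrc2 of complex III. Cox7a2l, Cox7b and Cox7a2 of complex IV, and Atp5g1, Atp5a1 and Atp5j2 of complex V, were also among them. Uqcrc1 measured 0.19 and 0.18 in DBA/2 0 w, 0.23 and 0.11 at 4 w and 0.37 and 0.30 at 8 w, and in B6 it went from 0.70 and 0.74 to 0.02 and 0.24 at 4 w and 0.48 and 0.45 at 8 w. All 4 w and 8 w samples of B6 were below its 0 w samples, while both 8 w samples of DBA/2 were above theirs, and the difference of the change was 0.50 ± 0.11 (adjusted p = 0.0196). Those of Cox7a2l (0.49 ± 0.13, adjusted p = 0.0396), Cox7b (0.45 ± 0.10, adjusted p = 0.0181) and Uqcrh (0.43 ± 0.08, adjusted p = 0.00841) were close to it. The median difference was 0.15 over the members and -0.04 over all probes tested.

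This count was 3 without B6 0 w replicate 1, 4 without B6 0 w replicate 2, 5 without DBA/2 0 w replicate 1, 3 without DBA/2 0 w replicate 2, and 8 without DBA/2 4 w replicate 1, DBA/2 8 w replicate 1 or B6 4 w replicate 2. With the replicate number as a block it was 21. In the unscaled values 50 members were called and all were lower, with the median of all probes shifted by -0.60, and with the hepatocyte marker level as a covariate limma called 0 members (30 at an unadjusted p under 0.05).

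At 8 w, 7 members were called in opposite directions in the strains, each against its own 0 w samples (background 2.57%): both probes of Uqcrh, and 1 probe each of Cox7a2, Cox7b, Atp5a1, Atp5b and Atp5j2, all up in DBA/2 and down in B6. Another 5 were called in the same direction (background 7.09%), Ndufa12, Ndufab1, Uqcr and Atp5k down and Cox5a up. At 2 w, Cox5a was the member called in opposite directions, up in DBA/2 and down in B6 (background 3.34%), and Uqcrh and Atp5l rose in both (background 2.24%). At 4 w and 9 w no member was called in opposite directions (background 1.89% and 1.15%), while Ndufa5, Ndufb10, Ndufb2 and Cox5a at 4 w, and Ndufa5, Ndufab1 and Ndufb2 at 9 w, were called in the same direction (background 3.41% and 4.23%).

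Some subunits have tissue-specific forms. Cox6a2 and Cox7a1, the forms of heart and skeletal muscle, and Cox4i2, a form of lung, were not called in any of the 12 comparisons. Cox4i2 was well above background in 5 of the 18 samples, and Cox6a2 and Cox7a1 in all 18. Striated muscle markers were measured in 0 to 3 of 8 genes per sample. Cox7b2 and Ndufa4l2 had no probe.

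Several members were measured in only some groups, and their changes are bounds. Atp5s was not well above background in DBA/2 9 w and was at least 1.64-fold lower there than at 0 w (adjusted p = 0.00202). A second probe of Ndufab1, the acyl carrier protein, was at least 1.96-fold lower in DBA/2 9 w (adjusted p = 0.00498) and at least 1.89-fold lower in the B6 9 w sample (adjusted p = 0.00576), and a second probe of Atp5j2 at least 1.18-fold lower in DBA/2 4 w and 1.74-fold lower in DBA/2 8 w (adjusted p = 0.0383 and 0.0390). For Atp5j2 the brightest probe went the other way at 8 w, up by 0.30 ± 0.07 (adjusted p = 0.0156), the one gene and comparison of 42 in which called probes of a gene disagreed in direction. With normexp background correction the changes of Atp5s and of this Ndufab1 probe in DBA/2 9 w turned to 0.64 and 0.74. The median change of all tested probes was itself 0.78 there, so that neither probe rose relative to the other probes. A bound of this kind sets the mean of the brighter group against the lowest signal that counts as well above background on each dimmer array, or the dim probe's own signal where that was higher.

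Other mitochondrial genes were read from the same fit, and their counts stand beside the shares of all tested probes given above for each comparison. At 4 w in B6, where 9.66% of all probes were lower, 9 of 18 genes of the tricarboxylic acid cycle and pyruvate dehydrogenase were lower and none higher. Of a list of electron carriers and of subunits outside the name rule, 5 of 10 genes were lower. That list also holds the member Atp5k. Of the mitochondrial ribosomal protein genes, 30 of 74 were lower. Citrate synthase (Cs) changed by -0.49 ± 0.10, the isocitrate dehydrogenase subunit Idh3a by -0.81 ± 0.23, cytochrome c1 (Cyc1) by -0.69 ± 0.11 and cytochrome c (Cycs) by -0.31 ± 0.07. At 8 w in B6, where 11.0% of all probes were higher and 10.2% lower, 9 of 17 glycolysis genes rose and 37 of 81 cytosolic ribosomal protein genes fell, while 1 mitochondrial ribosomal protein gene was lower and 3 were higher. Hexokinase 2 (Hk2) rose by 0.97 ± 0.17, and Ucp2, an inner-membrane carrier of the uncoupling protein family, fell by 1.45 (adjusted p = 4.31e-06).

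In DBA/2, 24, 10, 7 and 39 of 74 mitochondrial ribosomal protein genes were lower at 2, 4, 8 and 9 w (32.4%, 13.5%, 9.46% and 52.7%, against 7.82%, 7.24%, 14.0% and 14.3% of all probes), so that at 8 w the share was below that of all probes. Of 17 glycolysis genes, 5, 6, 9 and 8 were higher (29.4%, 35.3%, 52.9% and 47.1%, against 7.90%, 7.58%, 10% and 13.4%). Of 11 regulators of mitochondrial biogenesis, 2, 4, 5 and 4 were lower at these times and 1, Tfam at 9 w, was higher. Pprc1, a PGC-1 family coactivator, fell at all 4 times (-0.49, -0.55, -0.55 and -0.62), as did Gabpa, the ETS factor subunit of GABP (-0.38, -0.30, -0.40 and -0.42). Ppargc1b, another coactivator of that family, fell by 0.87 at 4 w, 0.88 at 8 w and 0.64 at 9 w, Tfb2m by 0.61 and 0.72 at 4 w and 8 w, and Tfb1m by 0.67 and 0.52 at 8 w and 9 w. Ppargc1a, Nrf1, Esrra, Polg and Polrmt were not called at any of the 4 times. The mitochondrially encoded cytochrome b (CYTB) was lower than at 0 w at every time in DBA/2 (-0.31, -0.34, -0.29 and -0.42). In B6 it was lower at 4, 8 and 9 w (-0.45, -0.32 and -0.43). It was also lower in DBA/2 than in B6 at 0, 4 and 8 w (-0.61, -0.50 and -0.58). CYTB was 1 of 3 mitochondrially encoded genes with a probe. Their summed signal was 46836 to 52992 in DBA/2 0 w and 50926 to 57771 in DBA/2 8 w. In B6 it was 68477 to 72120 at 0 w and 52797 to 55383 at 8 w. The sums thus overlapped between DBA/2 0 w and 8 w, and between the strains at 8 w. Assembly factors were lower in 5, 2, 4 and 11 of 24 genes in DBA/2 at 2, 4, 8 and 9 w (20.8%, 8.33%, 16.7% and 45.8%), near the share of all probes at 4 w and 8 w, and in 1, 5, 4 and 1 in B6 (4.17%, 20.8%, 16.7% and 4.17%, against 7.74%, 9.66%, 10.2% and 3.86% of all probes).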

How the data were processed

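RNA of circulating leukocytes was measured on 19 Agilent 1-colour mouse arrays of 18 samples. Per the file headers, the authors' scanner files were made with Agilent Feature Extraction 9.5.3.1, which subtracts background and removes spatial trends within an array, and hold an intensity (processed signal) per spot with no scaling between arrays, and other columns of 0 or 1 calls per spot. The deposited value table holds the same intensity per probe and was used as an alternative only. Per the labels, groups are strain and week.

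Control spots and outlier spots were left out, spots of a probe averaged, log2 taken, and each array centred on its 75th percentile taken from the 11536 probes that every array measured well above background. The 22939 probes measured so in 2 or more samples entered a limma model (version 3.58.1, R 4.3.3) with a mean for each of the 10 groups, 8 residual degrees of freedom and Benjamini-Hochberg adjustment at 0.05. The methods named no test for the fold changes. Tables and figures were made with Python 3.11.15, pandas 2.3.3 and matplotlib 3.10.9. The fit was run on simulated data with independent noise and no effect of slide or scan day, so that run does not cover such effects. The number of arrays limits the precision.

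The probe standing for a gene is the one with the highest mean. Named members are the core subunits, the tissue forms, the 3 largest rises and falls of each comparison, members called in opposite directions in the strains or most different between them, and those of lowest and highest F-test p; other members of the same complexes are named beside them and were chosen after their values were seen. A member gene that this rule covers is not reported here. The members and gene lists were chosen with earlier results of these data known. Gene symbols were matched to RefSeq, which held all 82 member names. Alternatives covered background correction, scaling, filters, blocks, left-out replicates and a hepatocyte covariate, and B6 2 w as reference was added after seeing the data.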

Additional observations from a re-analysis of the deposited data

Results flagged for a closer look

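The change from 0 w to the mean of 4 w and 8 w differed between the strains, by limma's interaction term, for 13 member probes, all of them more upward in DBA/2. The log2 difference of the change, DBA/2 minus B6, was among these Uqcrc1 (A_51_P109835) 0.61, Uqcrc1 0.50, Cox7a2l 0.49, Uqcrh (A_52_P541875) 0.47, Cox7b 0.45, Cox7a2 (A_52_P37894) 0.45, Uqcrh 0.43, Atp5g1 0.39, Atp5a1 (A_51_P402496) 0.39, Uqcrc2 0.35, Atp5j2 0.35 and Ndufa8 0.34. Groups of 2 samples or fewer were not examined for single samples that stand apart.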

How the results depend on the processing

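No result changed its count of calls by over 1.5 times with a floor of 10, with spots marked as outliers kept, with a filter that asked for 9 or more samples, or with either array of B6 0 w replicate 2 alone. Comparisons are given below as strain and week, each week against 0 w of the strain. Normexp background correction gave 0 calls in DBA/2 at 2 w and 4 w and in B6 at 2, 4 and 9 w and for the strain difference of the change (10, 4, 2, 15, 3 and 3 by limma at an unadjusted p under 0.05), 1 in DBA/2 8 w, 7 in DBA/2 9 w, 2 in B6 8 w, and 7, 17 and 5 between the strains at 0, 4 and 8 w. Without the filter on dim probes limma gave 0 in DBA/2 2 w and for the difference of the change (32 and 19 at an unadjusted p under 0.05), 1, 7 and 19 in DBA/2 at 4, 8 and 9 w, 1, 7, 15 and 1 in B6 at 2, 4, 8 and 9 w, and 29, 36 and 14 between the strains. The 75th percentile over all probes gave 12 in DBA/2 2 w, 4 in DBA/2 4 w and 20 in B6 4 w, and quantile normalization 19 in B6 4 w and 7 for the difference of the change. The unscaled value table gave 42, 2 and 68 in DBA/2 at 2, 4 and 9 w, 1, 15 and 87 in B6 at 2, 4 and 8 w, 50 for the difference of the change, and 75 and 49 between the strains at 0 w and 8 w. Each strain fitted alone gave 4, 4 and 15 in DBA/2 at 2, 4 and 8 w, and 1, 8 and 0 in B6 at 2, 4 and 9 w (31 at an unadjusted p under 0.05 for the last, by limma). A rule of at least 2-fold with no test gave 1, 1, 2 and 4 in DBA/2 at 2, 4, 8 and 9 w, 0, 3 and 3 in B6 at 4, 8 and 9 w, 1 for the difference of the change, and 4, 12 and 3 between the strains. With the hepatocyte marker level as a covariate limma gave 10 in DBA/2 8 w, 0 in B6 at 2, 4 and 9 w and for the difference of the change (18, 22, 25 and 30 at an unadjusted p under 0.05), and 3 and 1 between the strains at 0 w and 8 w.

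Slide as a random block gave 46, 22 and 46 in DBA/2 at 2, 4 and 8 w, 20, 52 and 32 in B6 at 2, 4 and 9 w, and 28 for the difference of the change, and slide as a fixed block 39, 18, 45, 9, 26 and 25 for the same comparisons without B6 4 w. A fixed slide block could not be fitted for DBA/2 9 w or between the strains. Same-numbered replicates share a scan day, and in DBA/2 at 0 w to 8 w a slide, but not a label that pairs them: over 28 pairs of groups the correlation of their deviations was -0.011 to 0.455, with 12 over 0.1. With the replicate block the counts were 41, 19 and 40 in DBA/2 at 2, 4 and 8 w, 8 and 23 in B6 at 2 w and 9 w, and 21 for the difference of the change.

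Leaving out 1 replicate at a time, the counts were 2 to 25, 2 to 9, 8 to 27 and 22 to 34 in DBA/2 at 2, 4, 8 and 9 w, 1 to 4, 12 to 33, 18 to 30 and 4 to 14 in B6 at 2, 4, 8 and 9 w, 3 to 13 for the difference of the change, and 33 to 47, 41 to 61 and 16 to 29 between the strains at 0, 4 and 8 w. A group left with 1 sample was assumed to vary like the others.

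Of 181 called differences named above, 62 turned in the unscaled value table, whose level moves with each array. From B6 0 w to 8 w it gave Cox6a1 0.57, Cox6b2 0.12, Cox7c 0.75, Cox7b 0.23, Cox6c 0.12, Cox8a 0.53, Atp5b 0.29, Uqcrh 0.26, Atp5l 0.41, Cox7a2 0.47, Atp5h 0.029, Atp5k 0.32, Atp5e 0.61, Atp5j2 0.67, Uqcr 0.67, Ndufa5 0.55, Ndufv1 0.67, Ndufa12 0.70, Ndufab1 0.75, Ndufa13 0.77, Uqcrh (A_52_P541875) 0.19, Atp5h (A_52_P640355) 0.12, Cox7a2 (A_52_P37894) 0.38, Atp5a1 (A_51_P402496) 0.72, Atp5b (A_51_P207636) 0.34 and Atp5b (A_52_P553841) 0.38. From DBA/2 0 w to 9 w it gave Cox6a1 -0.033, Ndufa3 -0.097, Ndufa1 -0.016 and Cox4i1 -0.022. For DBA/2 minus B6 at 0 w it gave Cox5a 0.10, Ndufa7 0.11, Ndufa4 0.43, Uqcrq 0.49, Atp5d 0.38, Sdhb 0.28, Cox6c 0.072, Cox8a 0.28, Atp5b 0.0014, Uqcrh 0.20, Atp5l 0.53 and Uqcrh (A_52_P541875) 0.19. For DBA/2 minus B6 at 4 w it gave Cox5a 0.11, Ndufa4 0.38, Uqcrq 0.35, Atp5d 0.56, Sdhb 0.51, Cox8a 0.20, Atp5l 0.076 and Uqcrh (A_52_P541875) 0.049. For the strain difference of the change it gave Cox7a2l -0.12, Cox7b -0.16, Uqcrh -0.17, Atp5j2 -0.25, Atp5g1 -0.21, Uqcrc1 -0.10, Uqcrc2 -0.25, Ndufa8 -0.26, Uqcrh (A_52_P541875) -0.13, Cox7a2 (A_52_P37894) -0.16 and Atp5a1 (A_51_P402496) -0.21. From B6 0 w to 9 w it gave Cox7b 0.056. Quantile normalization turned Cox6a1 in B6 8 w (0.16) and DBA/2 9 w (-0.018). Normexp turned Atp5s (0.64) and Ndufab1 (0.74, A_51_P208801) in DBA/2 9 w, where it put the median change of all tested probes at 0.78. The hepatocyte covariate turned Cox7b in B6 2 w (-0.18). The cause was not tested for any of these changes. Few samples and the signal over background limit what can be seen: 13 of the 106 tested member probes were not well above background in every sample.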

Other observations

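Some dim members differed between replicates in DBA/2 at 0 w to 8 w, where replicate 1 lay on slide 2 and replicate 2 on slide 5. Cox7a1 measured -2.40 and -1.04 at 0 w, -2.25 and -0.95 at 2 w, -2.56 and -1.18 at 4 w and -2.73 and -1.20 at 8 w, and at 9 w, on other slides, -2.14 and -2.25. Sdhc measured -1.38 and -0.64 at 0 w, -1.45 and -0.44 at 2 w, -1.51 and -0.82 at 4 w and -1.64 and -0.66 at 8 w, and -1.44 and -1.57 at 9 w. Replicate 2 was the higher of the pair at each of the first 4 times for both genes. The B6 replicates of Cox7a1 measured -2.15 and -2.04 at 0 w, -1.98 and -1.89 at 4 w and -2.77 and -2.60 at 8 w.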
